A study of Mus musculus with 27 samples.

Results

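Lipid droplet and triglyceride storage genes were described in the livers of 27 mice. The set holds 10 genes chosen by name (Plin2, Plin4, Plin5, Cidea, Cidec, G0s2, Pnpla2, Cd36, Fabp4 and Lpl) out of 55414 genes counted, and all 10 were found in the count table by their Ensembl identifiers. Liver fibrosis was modelled in 8-week-old female Balb/c mice by injecting carbon tetrachloride (CCl4) into the peritoneum over 2 weeks, and the mice without fibrosis received olive oil by the same route. Within each background the arm called untreated received none of the agents that follow. Other mice were gavaged daily with 4-methylumbelliferone (4MU, an inhibitor of hyaluronan synthesis). The remaining arms were injected through the tail vein with lipid nanoparticles (LNP). These carried an siRNA against hyaluronan synthase 2 (siHAS2-LNP) or a non-targeting luciferase siRNA (siLuc-LNP). Per the methods, control mice were gavaged with carboxymethyl cellulose, in which 4MU was given. Dosing with 4MU and with the particles began before the first CCl4 injection. The groups without CCl4 were control (4 mice, with PBS into the tail vein), 4MU (3), siLuc-LNP (3) and siHAS2-LNP (3). The fibrotic groups were CCl4 (2 mice), CCl4 + siHAS2-LNP (4), CCl4 + siLuc-LNP (4) and, with the gavage of 4MU, CCl4 + 4MU (4). RNA came from total liver homogenate, in which fewer cells of a type and less RNA per cell cannot be told apart.

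Hepatocytes store fatty acids as triglyceride in lipid droplets, whose surface is coated by proteins of the perilipin family. Perilipins shield the stored fat from lipases, CIDE proteins at contacts between droplets let lipid pass from one to the other so that droplets grow, and adipose triglyceride lipase starts the breakdown of the triglyceride. Several of these genes are best known from fat tissue and are kept low in normal liver, where they appear when fat accumulates or when macrophages and other non-parenchymal cells take up lipid.

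Totals were 7044386 to 29425937 counts per library (median 22109517), and the shallowest was CCl4 + siHAS2-LNP mouse 4. Levels are given as CPM (counts divided by the library total and brought to a common total) on totals scaled by the trimmed mean of M values (TMM). The scaling factors ranged from 0.816 to 1.32, the highest being that of CCl4 mouse 2. Has2, the target of the siRNA, had 0 counts in every mouse of the groups other than CCl4 (0 to 2 counts) and CCl4 + siLuc-LNP (0 to 1 counts), so its knockdown was not detectable at this depth. The sum of 6 hepatocyte markers was 163000 to 197000 CPM in control and 69100 to 122000 CPM in CCl4. The sum of 7 stellate cell and myofibroblast markers was 69.2 to 117 CPM in control and 556 to 747 CPM in CCl4.

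The DNA just before the transcription starts of 3 members is shown because their RNA differed between groups in the results below: Lpl rose with CCl4, while Plin4 and Plin2 differed in the CCl4 mice. Sequences run 5′ to 3′ on the strand of the gene and end at the last base before the start of the canonical transcript (GRCm39, GENCODE vM39). Capitals mark AGGTCA, the half-site bound by nuclear receptors such as the PPARs, or TATAAA, the TATA box, on either strand. The stretches are chr8:69332996-69333142 for Lpl on the plus strand, and chr17:56416932-56417181 for Plin4 and chr4:86588460-86588709 for Plin2 on the minus strand. That of Lpl is shorter because it was cut at the nearest annotated exon.
Lpl: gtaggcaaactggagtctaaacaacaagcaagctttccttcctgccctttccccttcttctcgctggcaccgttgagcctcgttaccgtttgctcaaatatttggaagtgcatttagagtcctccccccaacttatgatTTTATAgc
Plin4: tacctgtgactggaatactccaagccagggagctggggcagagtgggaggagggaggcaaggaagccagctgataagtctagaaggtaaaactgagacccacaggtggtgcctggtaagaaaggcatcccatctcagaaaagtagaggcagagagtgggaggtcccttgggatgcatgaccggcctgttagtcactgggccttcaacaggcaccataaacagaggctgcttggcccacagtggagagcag
Plin2: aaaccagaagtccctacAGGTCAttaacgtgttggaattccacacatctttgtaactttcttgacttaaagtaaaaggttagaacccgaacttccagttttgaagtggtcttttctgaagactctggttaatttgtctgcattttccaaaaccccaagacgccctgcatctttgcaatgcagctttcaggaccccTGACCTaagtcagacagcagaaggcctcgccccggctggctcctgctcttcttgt

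In the 250 bases before the start, AGGTCA was found in 2 of the 8 members searched and in 13.1% of 21770 promoters of protein-coding genes, both strands counted. Plin2 held it at bases 233 to 228 before the start and, on the opposite strand, at bases 55 to 50. Plin5 held it at 175 to 170. TATAAA was found in 1 member, Lpl, on the opposite strand at bases 8 to 3 before the start, against 11.9% of all promoters. CCAAT (Plin5 and Cidec) and GGGCGG (Plin5 and Pnpla2) were each found in 2 members, against 36.5% and 36.3% of all promoters. The direct repeat of the half-site spaced by 1 base was found in none of the 8 and in 0.349% of all. AGGTCA can lie within a match of the direct repeat. These are matches of letters and were not tested as binding sites.

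Per kilobase of merged exons, the level of Plin2 was the highest of the 10 genes in control liver, at 38.1 CPM per kb (range 27.2 to 61.8, n = 4). It lay above every control value of Pnpla2 (mean 15.7 CPM per kb, range 12.9 to 19.2), the next in order. Pnpla2 overlapped in range with Plin5 (mean 11.4 CPM per kb), and Plin5 with G0s2 (8.61), Lpl (8.15) and Cd36 (5.87). The other 4 genes were far lower, with means of 0.767 CPM per kb for Fabp4, 0.515 for Cidec, 0.221 for Plin4 and 0.0191 for Cidea. Merged exons take in every annotated transcript, and for Fabp4 the 4953 merged bases cover its whole span. The order between genes therefore depends on the annotation. Without the length, these 4 were also the lowest in control. Their means were 3.8 CPM (Fabp4), 1.59 (Cidec), 1.77 (Plin4) and 0.0427 (Cidea), against 35.1 for Plin5, the next. In CCl4 + siHAS2-LNP, Lpl had the highest mean of the 10, at 51.8 CPM per kb, above Plin2 at 40.8. Positions of genes below are those of GENCODE vM39 on GRCm39.

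**Figure D1:**
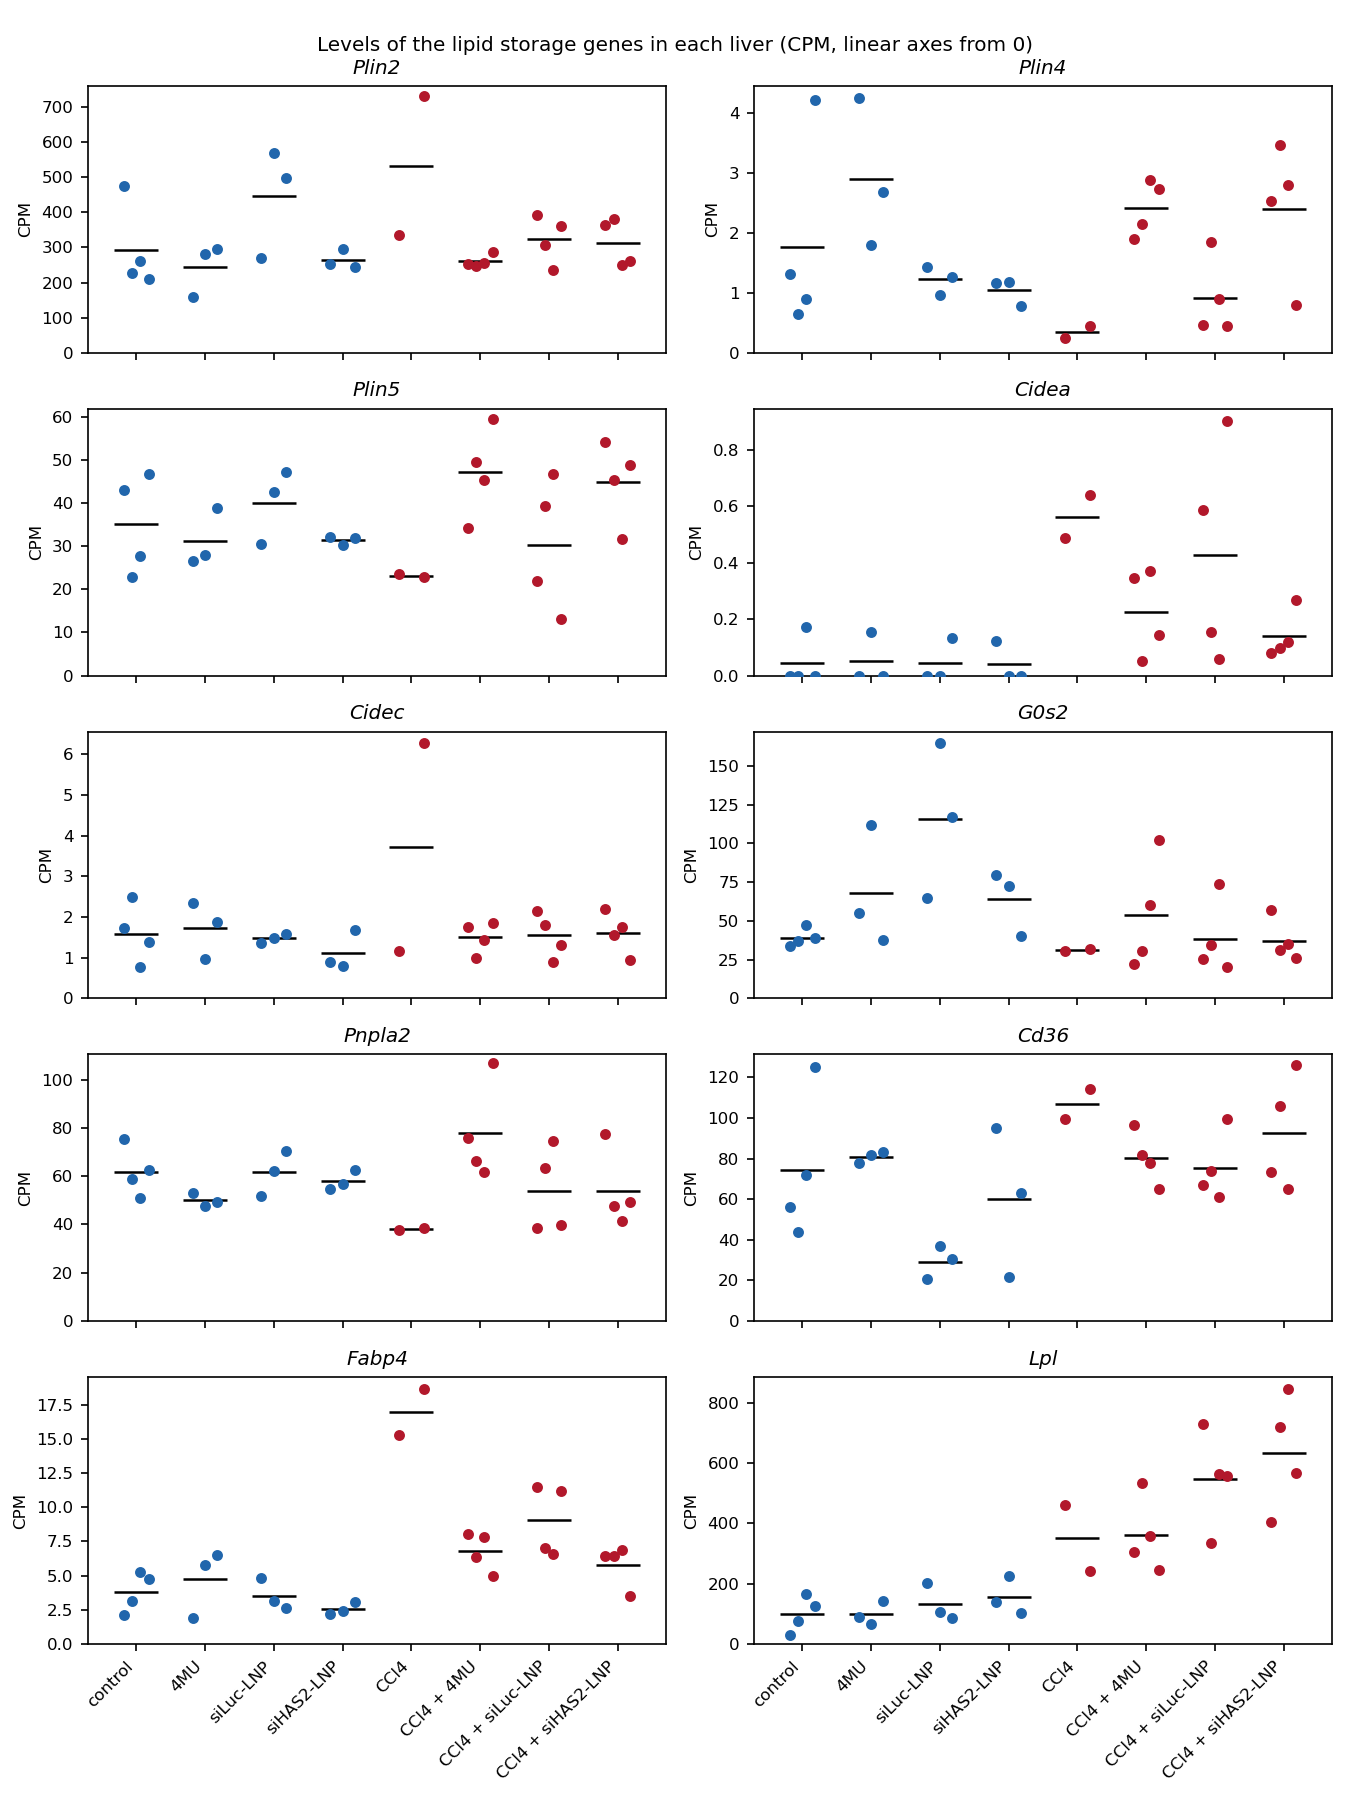
Levels of the 10 genes in each liver, in CPM on linear axes that start at 0, by group; each point is a mouse, blue without and red with CCl4, and the black line is the group mean. All 14 mice with CCl4 sit between 240 and 844 CPM for Lpl, above all 13 others, and the group mean of Plin4 is lowest in CCl4.

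The first comparison asked what CCl4 did to these genes whatever else the mice received, as the mean of the 4 fibrotic groups against the mean of the other 4. On this average, Lpl, Fabp4 and Cd36, which release, carry and take up fatty acids, were higher with CCl4. G0s2, which encodes the inhibitor of adipose triglyceride lipase, was lower. Among the single arms, Cd36 and G0s2 were called with siLuc-LNP only. Of the 9 members tested, 3 were thus higher and 1 lower. Of all 14114 genes tested, 26.3% were higher and 25.6% lower, so both shares are to be read against a background of about as many changes. The median log2 fold change was 0.187 over the 9 members and -0.0153 over all genes tested.

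Lpl encodes lipoprotein lipase, which releases fatty acids from circulating triglyceride at the vessel wall (ENSMUSG00000015568, chr8:69284603-69360100, plus strand). Control mice 1 to 4 had 29, 77, 165 and 127 CPM, and the 4MU mice had 89.7, 64.5 and 141 CPM. The siLuc-LNP mice had 201, 105 and 87.3 CPM, and the siHAS2-LNP mice had 139, 224 and 102 CPM. With CCl4, the level was 459 and 240 CPM in CCl4, and 304, 532, 359 and 245 CPM in CCl4 + 4MU. No mouse without CCl4 reached the lowest mouse with it. CCl4 + siLuc-LNP had 730, 334, 564 and 556 CPM, and CCl4 + siHAS2-LNP had 404, 719, 844 and 565 CPM. Averaged over the arms, Lpl rose 3.84-fold, a log2 fold change of 1.94 (SE 0.23, edgeR adjusted p = 1.74e-07, 95% interval 1.47 to 2.42). The increase passed the threshold in each arm, with log2 fold changes of 1.81 against control, 1.87 with 4MU, 2.06 with siLuc-LNP and 2.03 with siHAS2-LNP (adjusted p = 0.00461, 0.0044, 0.0021 and 0.00439). Against control, the call was lost without CCl4 mouse 1 (1.28, adjusted p = 0.101).

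Fabp4 encodes a carrier of fatty acids inside fat cells, macrophages and capillary endothelium (ENSMUSG00000062515, chr3:10268785-10273737, minus strand). Its level was 2.08, 3.13, 5.25 and 4.74 CPM in control and 15.3 and 18.7 CPM in the CCl4 mice. CCl4 + siLuc-LNP mice had 11.5, 7.02, 6.6 and 11.2 CPM, against 4.86, 3.13 and 2.63 CPM in siLuc-LNP. CCl4 + siHAS2-LNP mice had 6.45, 6.44, 6.85 and 3.47 CPM, against 2.18, 2.4 and 3.05 CPM in siHAS2-LNP. In these 3 arms every mouse with CCl4 lay above every mouse without it. In the 4MU arm the ranges overlapped, at 8.04, 6.38, 7.83 and 4.94 CPM with CCl4 and 1.89, 5.77 and 6.53 CPM without. Averaged over the arms, the log2 fold change of Fabp4 was 1.32 (SE 0.18, adjusted p = 1.25e-06). It was 2.15 against control (adjusted p = 6.85e-05), 1.37 with siLuc-LNP (0.00608) and 1.23 with siHAS2-LNP (0.0256). In the 4MU arm it was 0.52 (95% interval -0.18 to 1.22, adjusted p = 0.287). The call in the siHAS2-LNP arm was lost without siHAS2-LNP mouse 1 or 2 or CCl4 + siHAS2-LNP mouse 2 or 3, with log2 fold changes of 1.12 to 1.19 and adjusted p from 0.0582 to 0.105.

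Cd36 encodes a scavenger receptor that takes up fatty acids and oxidised lipoproteins (ENSMUSG00000002944, chr5:17986432-18094067, minus strand). It was at 56.1, 43.8, 71.8 and 125 CPM in control and at 99.3 and 114 CPM in CCl4. The 4MU mice (77.8, 81.7 and 83.4 CPM) and the CCl4 + 4MU mice (96.6, 81.9, 77.7 and 65 CPM) overlapped. The siLuc-LNP mice were the lowest group without CCl4, at 20.5, 36.9 and 30.4 CPM, and lay below all CCl4 + siLuc-LNP mice (67, 74, 61.3 and 99.6 CPM). The siHAS2-LNP mice ranged from 21.8 to 95 CPM and the CCl4 + siHAS2-LNP mice from 65.2 to 126 CPM. Averaged over the arms, the log2 fold change of Cd36 was 0.63 (SE 0.18, adjusted p = 0.00531). Among the single arms it passed the threshold only with siLuc-LNP (1.37, adjusted p = 0.00736), and this call was lost without siLuc-LNP mouse 1 (1.17, adjusted p = 0.0527). The log2 fold changes of Cd36 in the other arms were 0.53 against control, -0.01 with 4MU and 0.63 with siHAS2-LNP. Their edgeR adjusted p ranged from 0.261 to 0.985. The averaged call was lost when all 14 mice with CCl4 were set against all 13 others as 2 groups (0.47, adjusted p = 0.0683).

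G0s2 encodes a small protein that binds adipose triglyceride lipase and blocks it (ENSMUSG00000009633, chr1:192949563-192956177, minus strand). Control mice had 33.6, 37.2, 47.5 and 38.7 CPM, and the CCl4 mice had 30.7 and 31.8 CPM. The siLuc-LNP mice were the highest group, at 64.6, 165 and 117 CPM, against 25.2, 34.3, 74 and 19.9 CPM in CCl4 + siLuc-LNP. The siHAS2-LNP mice had 79.4, 72.4 and 40.5 CPM, against 56.9, 30.9, 35 and 26 CPM in CCl4 + siHAS2-LNP. The groups with and without CCl4 overlapped in both nanoparticle arms. The 4MU mice (54.8, 112 and 37.4 CPM) and the CCl4 + 4MU mice (22.1, 30.6, 60.1 and 102 CPM) were both spread widely. Averaged over the arms, G0s2 fell by 0.76 on the log2 scale (SE 0.24, adjusted p = 0.0103). In the siLuc-LNP arm it fell by 1.6 (adjusted p = 0.0127), a call that was lost without siLuc-LNP mouse 2 (-1.25, adjusted p = 0.0814). In the other arms the log2 fold changes of G0s2 were -0.33 against control, -0.34 with 4MU and -0.78 with siHAS2-LNP, with adjusted p from 0.285 to 0.662. Limma-voom called it in the 4MU arm, and edgeR without the filter in the siHAS2-LNP arm.

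Pnpla2 encodes adipose triglyceride lipase, the enzyme that G0s2 inhibits (ENSMUSG00000025509, chr7:141034404-141040656, plus strand). Its level was 75.4, 58.7, 50.8 and 62.7 CPM in control and 37.9 and 38.5 CPM in CCl4, without overlap. In the 4MU arm the order was turned, at 53.2, 47.5 and 49.2 CPM without CCl4 and 75.9, 66.2, 61.7 and 107 CPM with it, again without overlap. The 4MU arm therefore moved up and the untreated arm down. Against control, Pnpla2 fell by 0.7 on the log2 scale (SE 0.26, adjusted p = 0.043), and in the 4MU arm it rose by 0.64 (SE 0.23, adjusted p = 0.0438). The difference between these changes, 1.33, passed the threshold (SE 0.35, adjusted p = 0.0321, 95% interval 0.61 to 2.05). It was 1 of 9 members to do so, where 2.72% of all genes tested were higher and 2.95% lower in this interaction of 4MU with CCl4. Leaving out control mouse 1, 4MU mouse 2 or 3, either CCl4 mouse, or CCl4 + 4MU mouse 1 or 4 ended the call of the difference (values 1.14 to 1.34, adjusted p from 0.0525 to 0.151), as did a block for the replicate number (adjusted p = 0.054). The call against control was lost without control mouse 1, 2 or 4 or either CCl4 mouse (-0.71 to -0.59, adjusted p from 0.0569 to 0.201). That in the 4MU arm was lost without any of the 4MU mice or CCl4 + 4MU mouse 1 or 4 (0.44 to 0.69, adjusted p from 0.0655 to 0.182). In the siLuc-LNP arm (51.8, 62.3 and 70.6 CPM without, 38.7, 63.3, 74.4 and 39.7 CPM with CCl4) and the siHAS2-LNP arm (54.8, 56.8 and 62.7 CPM without, 77.5, 47.5, 41.4 and 49.5 CPM with CCl4) the ranges overlapped. The averaged log2 fold change of Pnpla2 was -0.09, with a 95% interval of -0.33 to 0.15.

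Plin2 encodes the main droplet coat protein of hepatocytes, and was counted at 7147 reads per library on average (ENSMUSG00000028494, chr4:86565912-86588459, minus strand). It was at 475, 227, 262 and 209 CPM in control and at 334 and 731 CPM in CCl4. The level in CCl4 mouse 2 was the highest of all 27 mice, and that in CCl4 mouse 1 lay within the control range. The 4MU mice had 158, 281 and 295 CPM, and the CCl4 + 4MU mice lay close together at 254, 247, 256 and 287 CPM. The siLuc-LNP mice had 269, 570 and 497 CPM, and the CCl4 + siLuc-LNP mice had 393, 307, 236 and 360 CPM. The siHAS2-LNP mice had 253, 295 and 245 CPM, and the CCl4 + siHAS2-LNP mice had 364, 380, 250 and 260 CPM. Plin2 was higher in CCl4 than in control by 0.86 on the log2 scale (SE 0.33, adjusted p = 0.0424), and the value without CCl4 mouse 2 was 0.21 (adjusted p = 0.767). The call was also lost without control mouse 2, 3 or 4 (0.74 to 0.82, adjusted p from 0.0799 to 0.103). Averaged over the arms, its difference was 0.19 (95% interval -0.13 to 0.5).

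Plin4, a perilipin of fat and muscle that coats small droplets, was low, at a mean of 38.52 reads per library. Its level was 1.32, 0.649, 0.896 and 4.21 CPM in control and 0.243 and 0.451 CPM in CCl4, which rest on 5 and 12 reads. Both CCl4 mice lay below every other mouse but for CCl4 + siLuc-LNP mouse 4, at 0.45 CPM. The 4MU mice had 4.25, 1.79 and 2.68 CPM, and the CCl4 + 4MU mice had 1.89, 2.14, 2.88 and 2.74 CPM. The siLuc-LNP mice had 1.43, 0.968 and 1.27 CPM, against 0.47, 1.85, 0.9 and 0.45 CPM in CCl4 + siLuc-LNP. The siHAS2-LNP mice had 1.17, 1.18 and 0.777 CPM, and 3 of the CCl4 + siHAS2-LNP mice lay above them (2.54, 3.46, 2.8 and 0.8 CPM). Against control, Plin4 fell by 2.32 on the log2 scale (SE 0.72, adjusted p = 0.0147). The call was lost without control mouse 4 (-1.41, adjusted p = 0.083), without CCl4 mouse 1 (-1.96, adjusted p = 0.111) and without CCl4 mouse 2 (-2.83, adjusted p = 0.0735). In the siHAS2-LNP arm the difference was 1.25 in the other direction (95% interval 0.13 to 2.37, adjusted p = 0.136), which limma-voom called (adjusted p = 0.0487), as did edgeR without the filter and on the groups compared alone, and the averaged difference was -0.44 (-1.03 to 0.16).

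Plin5 tethers droplets to mitochondria and is known from tissues that burn fat. Its position is next to Plin4 on the same strand of chromosome 17 (Plin5, ENSMUSG00000011305, at chr17:56418446-56424610, and Plin4, ENSMUSG00000002831, at chr17:56406617-56416931, minus strand). It was at 42.9, 22.8, 27.6 and 46.8 CPM in control and 23.5 and 22.8 CPM in CCl4. The CCl4 + siLuc-LNP mice spanned the widest range, at 21.9, 39.3, 46.8 and 13.1 CPM. The other groups without CCl4 ranged from 26.6 to 47.2 CPM, CCl4 + 4MU from 34.1 to 59.5 CPM and CCl4 + siHAS2-LNP from 31.6 to 54.1 CPM. Plin5 passed the threshold by edgeR in no comparison of mice with and without CCl4, and without the filter it was called in the 4MU arm. Its log2 differences ranged from -0.6 against control (95% interval -1.33 to 0.14) to 0.6 in the 4MU arm (-0.04 to 1.24), with an average of 0.03 (-0.3 to 0.35).

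Cidec, whose protein enlarges droplets, was counted at 38 reads per library on average (ENSMUSG00000030278, chr6:113400691-113412721, minus strand). CCl4 mouse 2 had 6.28 CPM and stood apart from CCl4 mouse 1 (1.17 CPM) and from the other 25 mice, which ranged from 0.768 to 2.48 CPM. The increase against control, 1.26 on the log2 scale (SE 0.48, adjusted p = 0.0443), turned to -0.41 without CCl4 mouse 2 (adjusted p = 0.693). It was also no longer called without control mouse 1, 3 or 4 (1.03 to 1.3, adjusted p from 0.0602 to 0.116). In the 4MU, siLuc-LNP and siHAS2-LNP arms the differences were -0.18, 0.08 and 0.6, none past the threshold. The averaged difference of Cidec, 0.44 (adjusted p = 0.12), passed without CCl4 mouse 1 (0.64, adjusted p = 0.013).

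Cidea, the family member of brown fat that also appears in fatty liver, fell below the filter of 10 reads per library, with a mean of 4.407 (ENSMUSG00000024526, chr18:67476317-67501224, plus strand). It was read 0, 0, 4 and 0 times in the control mice, 0, 4 and 0 times with 4MU, 0, 0 and 3 times with siLuc-LNP and 3, 0 and 0 times with siHAS2-LNP. It was read 10 and 17 times in the CCl4 mice and 15, 4, 1 and 26 times in CCl4 + siLuc-LNP. Both CCl4 mice exceeded every mouse without CCl4. In CCl4 + 4MU the counts of Cidea were 8, 1, 10 and 4, and in CCl4 + siHAS2-LNP they were 2, 2, 3 and 2. In a fit with no filter, on 31177 genes, the averaged log2 difference of Cidea was 2.4 (adjusted p = 3.02e-05), with 3.46 against control (0.0036) and 3 in the siLuc-LNP arm (0.0228). With the filter of edgeR's filterByExpr, which kept Cidea, it was called in the first 2 of these but not in the siLuc-LNP arm. No mouse without CCl4 had more than 4 counts, so Cidea passed that filter only through mice with CCl4. Its calls there are therefore no separate support for an increase with CCl4. These values depend on how the fit treats zeros, because all mice of the siLuc-LNP and siHAS2-LNP groups were at 3 counts or fewer. The 4MU arm (1.88, adjusted p = 0.236) and the siHAS2-LNP arm (1.25, 0.653) did not pass.

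By arm, CCl4 against control called 4 of the 9 tested members higher (Plin2, Cidec, Fabp4 and Lpl) and 2 lower (Plin4 and Pnpla2), where 18% of all genes were higher and 16.1% lower. The members' median log2 fold change was 0.53, against -0.02 over all genes. Without CCl4 mouse 2 the number of members called fell from 6 to 2 (Fabp4 and Lpl), and that of all genes from 4805 to 2154. Limma-voom also called Fabp4 and Lpl alone, the fit on these groups alone called Pnpla2, Fabp4 and Lpl, and the fit with a replicate block called Plin4, Fabp4 and Lpl. In the 4MU arm 2 members were higher (Pnpla2 and Lpl) and 0 lower, where 13.2% and 10.5% of all genes were. In the siLuc-LNP arm 3 were higher (Cd36, Fabp4 and Lpl) and 1 lower (G0s2), where 13% and 11.2% of all genes were. In the siHAS2-LNP arm 2 were higher (Fabp4 and Lpl) and 0 lower, where 7.74% and 5.09% of all genes were.

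**Figure D2:**
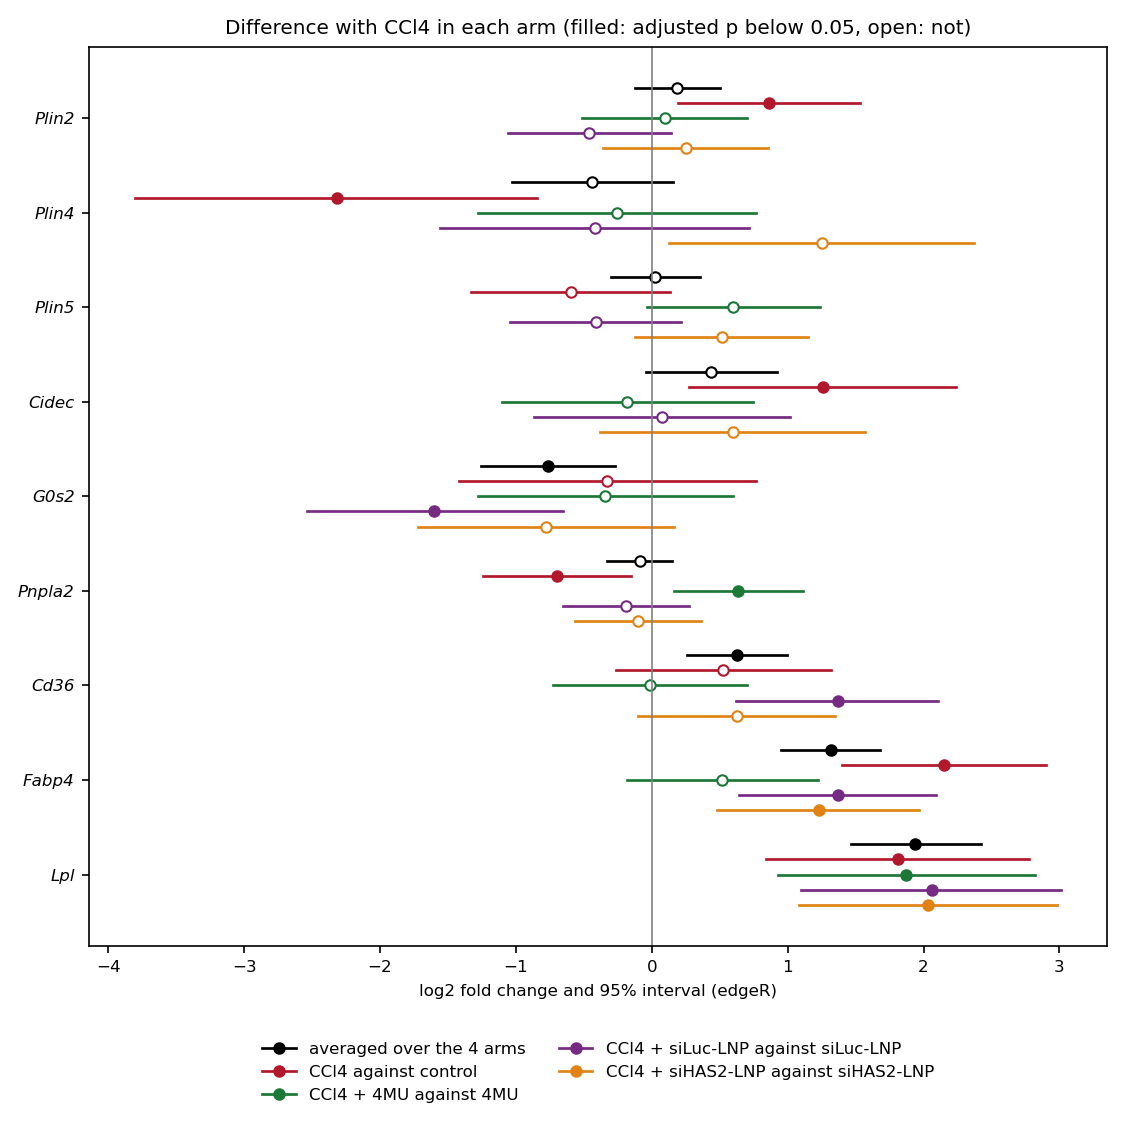
Log2 fold change with CCl4 (horizontal axis, with 95% interval) of the 9 members tested, averaged over the 4 arms and in each arm; filled points have an adjusted p below 0.05 (edgeR). Lpl lies between 1.81 and 2.06 in every arm, while Plin2, Plin4, Plin5, Cidec, Pnpla2 and Cd36 lie on both sides of 0.

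The fibrotic groups were then compared with CCl4 alone, to ask how the levels differed under treatment. These comparisons share the 2 CCl4 mice with each other and with the comparison to control. In CCl4 + 4MU, the coat gene Plin4 and the lipase gene Pnpla2 were higher than in CCl4, and Plin2 and Fabp4 were lower. The levels given above did not overlap between the groups for any of these 4 genes, nor for Plin5 and Cd36, which were not called. The share of all genes without overlap was not counted in any comparison. The log2 differences were 2.75 for Plin4 (SE 0.72, adjusted p = 0.011) and 1.02 for Pnpla2 (SE 0.27, adjusted p = 0.011). They were -1.03 for Plin2 (SE 0.32, adjusted p = 0.0295) and -1.32 for Fabp4 (SE 0.36, adjusted p = 0.0133). Of all genes, 8.28% were higher and 10% lower. Plin5 (1.02, adjusted p = 0.0506) and Cidec (-1.3, adjusted p = 0.0558) did not pass. Lpl differed by 0.04, with a 95% interval of -0.97 to 1.05.

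All of these 4 calls were lost without CCl4 mouse 2, when the number of all genes called fell from 2580 to 177. The values were then 3.26 for Plin4, 1.01 for Pnpla2, -0.39 for Plin2 and -1.2 for Fabp4 (adjusted p from 0.104 to 0.627). Without CCl4 mouse 1, Plin4 (2.39, adjusted p = 0.0776) and Pnpla2 (0.999, adjusted p = 0.0564) lost their calls, and Cidec (-2.06, adjusted p = 0.00482) gained one. Without CCl4 + 4MU mouse 1, Plin2 was no longer called (-1.02, adjusted p = 0.0564) and Plin5 was (1.15, adjusted p = 0.0431), and without mouse 2 Plin2 was at the threshold (-1.03, adjusted p = 0.05). Limma-voom called Pnpla2 and Fabp4 alone, the replicate block ended the call of Plin2 (adjusted p = 0.0772), and DESeq2 also called Plin5 and Cidec. With a lone CCl4 mouse, the spread was taken from the other groups. The part of this library in the result was not tested further.

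In CCl4 + siHAS2-LNP, Plin4 was likewise higher than in CCl4 (2.8, SE 0.72, adjusted p = 0.0124) and Fabp4 lower (-1.52, SE 0.36, adjusted p = 0.00782). Both were without overlap, as were Plin5 and Pnpla2, which were not called. Of all genes, 7.11% were higher and 7.33% lower. Some markers of cells that can hold Fabp4 were lower too in this comparison, with 3 of 8 endothelial and 3 of 8 macrophage markers called lower and 0 higher. So were 3 of 7 stellate cell markers. In CCl4 + 4MU against CCl4, where Fabp4 was also lower, 0 of 8 endothelial, 0 of 8 macrophage and 0 of 7 stellate cell markers were called. The part of these cells in either result was not tested. Plin2 (-0.76), Plin5 (0.96), Cidec (-1.17), Pnpla2 (0.5) and Lpl (0.86) did not pass by edgeR, with adjusted p from 0.0753 to 0.266. Both calls were lost without CCl4 mouse 2, when the number of all genes called fell from 2038 to 108, with 3.3 for Plin4 (adjusted p = 0.117) and -1.39 for Fabp4 (adjusted p = 0.122). Without CCl4 mouse 1 the call of Plin4 was lost (2.45, adjusted p = 0.0813), and Plin2 (-1.23, adjusted p = 0.0307) and Cidec (-1.91, adjusted p = 0.0104) passed. Limma-voom called Fabp4 alone. Plin5 was called by DESeq2 (0.926, adjusted p = 0.0497), by the fit on the groups compared alone (0.939, adjusted p = 0.0199) and without the filter (0.937, adjusted p = 0.00537).

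In CCl4 + siLuc-LNP, which received the particle with the non-targeting siRNA, 0 of 9 members passed against CCl4 by edgeR, where 0.0567% of all genes were higher and 0.191% lower. At an unadjusted p below 0.05 there were 3 (Plin2, Cidec and Fabp4). DESeq2 and limma-voom also called 0, and without CCl4 mouse 1 Cidec passed (-2.01, adjusted p = 0.0343). The log2 differences were 1.35 for Plin4 (95% interval -0.14 to 2.84), -0.9 for Fabp4 (-1.64 to -0.16) and 0.5 for Pnpla2 (-0.04 to 1.04). CCl4 + siLuc-LNP mice 1 and 4 had Plin4 and Pnpla2 levels near those of the CCl4 mice and the higher Fabp4 levels of their group, and mice 2 and 3 did not. This split was seen in the values themselves and was not tested, and Cd36 and Lpl did not follow it. Cd36 was at 67 CPM in mouse 1 and 74 CPM in mouse 2. Lpl was at 730 and 556 CPM in mice 1 and 4, and at 334 and 564 CPM in mice 2 and 3. The Plin5 levels of mice 1 and 4 were 21.9 and 13.1 CPM, the latter the lowest of all 27 mice. Over all genes, pairs with mouse 3 differed most in this group, with a chi-square per degree of freedom of 319 to 416. The pairs among mice 1, 2 and 4 were at 68.1 to 120, and mouse 3 had the lowest scaling factor (0.816).

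The effect of the Has2 siRNA with the particle held fixed was compared between CCl4 + siHAS2-LNP and CCl4 + siLuc-LNP. By edgeR 0 of 9 members passed, with 1 at an unadjusted p below 0.05 (Plin4), and DESeq2 and limma-voom also called 0. Of all genes, 0.786% were higher and 0.305% lower. Plin4 differed by 1.44 (95% interval 0.42 to 2.47, adjusted p = 0.137) and Fabp4 by -0.62 (-1.26 to 0.02, adjusted p = 0.32), and for both the groups overlapped. The interval for Pnpla2 was -0.43 to 0.43 and that for Lpl was -0.61 to 1.04. The interaction of siHAS2-LNP with CCl4, set against siLuc-LNP, called 0 members by edgeR, DESeq2 and limma-voom, with 2 at an unadjusted p below 0.05 (Plin4, 1.66, and Plin5, 0.93), where 0.0213% of all genes were higher and 0.0142% lower. In the interaction of 4MU with CCl4, Fabp4 (-1.63, adjusted p = 0.0516) and Plin4 (2.06, adjusted p = 0.139) did not pass by edgeR. Fabp4 passed by DESeq2 (adjusted p = 0.0222) and limma-voom (0.0358), and without control mouse 3, 4MU mouse 1 or CCl4 + 4MU mouse 3 (-2.01 to -1.71).

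**Figure D3:**
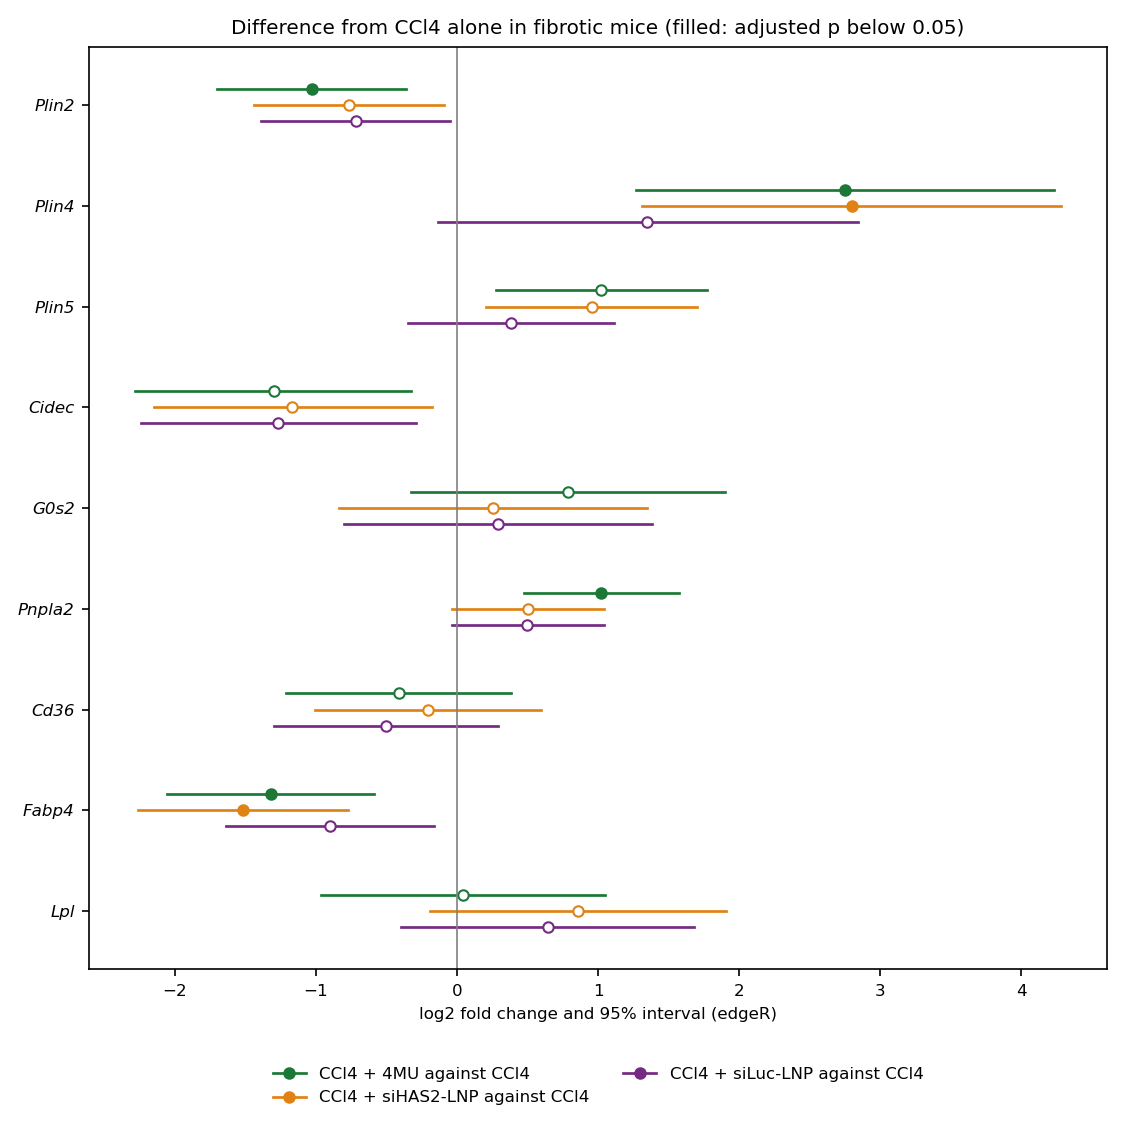
Log2 fold change against CCl4 alone (horizontal axis, with 95% interval) of the 9 members tested in the 3 treated fibrotic groups; filled points have an adjusted p below 0.05 (edgeR). Plin4 is 2.75 with 4MU and 2.8 with siHAS2-LNP, and no point of CCl4 + siLuc-LNP is filled.

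**Figure D4:**
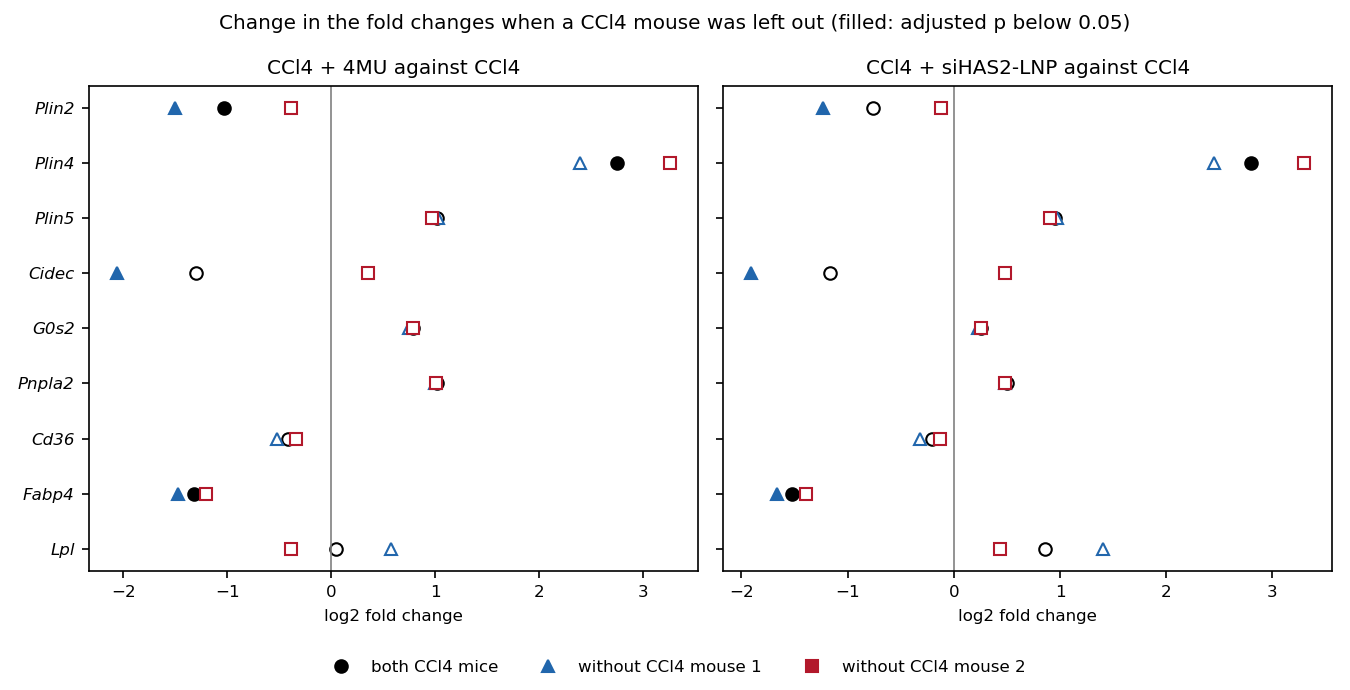
Log2 fold change against CCl4 (horizontal axis) of the 9 members tested in CCl4 + 4MU and CCl4 + siHAS2-LNP, with both CCl4 mice (circles), without CCl4 mouse 1 (triangles) and without CCl4 mouse 2 (squares); filled symbols have an adjusted p below 0.05 (edgeR). No square is filled, and Cidec changes sign, from -1.3 to 0.35 with 4MU.

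In mice without fibrosis, edgeR called 0 of the 9 members in any comparison. For 4MU against control, 0 members had an unadjusted p below 0.05 and DESeq2 and limma-voom called 0, where 0.00709% of all genes were higher and 0% lower. G0s2 had the widest difference, 0.8 (95% interval -0.14 to 1.74). For siLuc-LNP against control, 3 had an unadjusted p below 0.05 (Plin2, G0s2 and Cd36), where 0.085% of all genes were higher and 0.128% lower. The groups did not overlap for G0s2 (1.56 on the log2 scale, 95% interval 0.62 to 2.5, adjusted p = 0.286) or for Cd36 (-1.34, -2.09 to -0.6, adjusted p = 0.203). DESeq2 called 1 of them (Cd36) and limma-voom 1 (G0s2). For siHAS2-LNP against siLuc-LNP, 2 had an unadjusted p below 0.05 (Plin2, -0.76, and Cd36, 1.03), where 0.0283% of all genes were higher and 0.0142% lower. DESeq2 called 0 and limma-voom 1 (Plin2).

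Genes of the same pathway that are not members were taken from 5 lists by role, of which 37 of 39 genes passed the filter. A list of 7 regulators was kept apart and is not in the counts of this paragraph. With CCl4, averaged over the arms, 5 were higher and 20 lower, with a median log2 fold change of -0.25 against -0.02 over all genes. Of all genes, 26.3% were higher and 25.6% lower in this comparison. Against control 1 was higher and 16 lower, where 18% and 16.1% of all genes were. In the 4MU arm 2 were higher and 4 lower (13.2% and 10.5% of all genes), in the siLuc-LNP arm 3 and 11 (13% and 11.2%), and in the siHAS2-LNP arm 1 and 9 (7.74% and 5.09%).

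Among the other coat and CIDE genes, 2 of 7 tested were higher with CCl4 and 2 lower, averaged over the arms. Hsd17b13, a droplet enzyme of hepatocytes, was higher by 0.69 (adjusted p = 5.46e-05), and Hilpda, a further inhibitor of adipose triglyceride lipase, by 0.45 (0.0157). Hilpda had its highest group level in CCl4 (6.06 CPM ± 0.74, SD, n = 2), against 2.56 CPM ± 0.76 in control (n = 4). Of the other proteins of the droplet surface, Aup1 fell by 0.52 (4.07e-05) and Rab18 by 0.23 (0.03). The call of Rab18 was lost in 9 of 34 alternatives. Plin1, the perilipin of fat cells, had too few reads to be tested.

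Of the genes that form droplets, 1 of 5 was higher, Ldaf1 (0.76, adjusted p = 0.000252), whose protein works with seipin. Fitm2 fell by 0.31 (0.00544). Fitm1, which is known from muscle, was read 5 to 39 times in each mouse without CCl4 and 0 to 14 times in each mouse with it, and was also called lower.

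Of the triglyceride synthesis genes, 0 of 7 were higher and 4 lower. Dgat2, which makes the last bond of the triglyceride, fell by 0.78 averaged over the arms (adjusted p = 7.52e-06). In the untreated arm alone, its level was 616 CPM ± 102 in control and 264 CPM ± 94.3 in CCl4. Lpin1 fell by 0.39 (0.0391), a call lost in 16 of 34 alternatives, and Agpat2 by 0.34 (0.0175), a call lost in 2. Of the lipolysis genes, 1 of 7 was higher, Abhd5 (0.33, adjusted p = 0.00928), the coactivator of adipose triglyceride lipase. Lower were 4, among them Ces1d, a carboxylesterase that breaks down triglyceride in the liver (-1.21, adjusted p = 2.66e-07), Mgll, the lipase of monoglycerides (-0.92, 1.06e-06), and Aadac (-0.37, 0.00511). Against control alone, Pnpla3 was also called lower, with 15 to 926 reads in the control mice and 11 and 16 in the CCl4 mice.

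Of the genes of fatty acid uptake and lipoprotein lipase partners, 1 of 11 was higher and 8 lower. Gpihbp1, which carries lipoprotein lipase to the capillary surface, rose by 0.66 (adjusted p = 0.0106) and thus moved in the direction of Lpl. Vldlr, a lipoprotein receptor, fell by 2.5 averaged over the arms (adjusted p = 1.55e-10). In the untreated arm alone, its level was 9.56 CPM ± 0.92 in control and 1.21 CPM ± 0.76 in CCl4. Lipc, the hepatic lipase and a relative of lipoprotein lipase, fell by 1.55 (2.71e-09), and Fabp1, the fatty acid carrier of hepatocytes, by 1.34 (2.01e-09). Lpl and Fabp4 rose while Lipc and Fabp1 fell, and in each of the 4 arms both Lipc and Fabp1 were called lower. Of the regulators, 0 of 7 were higher and 2 lower averaged over the arms, where 26.3% and 25.6% of all genes were. The 2 were Cebpa, lower by 0.65 (adjusted p = 0.000372), and Pparg, by 0.52 (2.91e-05). Pparg is a receptor known to switch on Fabp4, Cd36 and Cidec in fat cells. In the untreated arm alone, its level was 11.1 CPM ± 1.51 in control and 9.33 CPM ± 0.69 in CCl4.

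**Figure D5:**
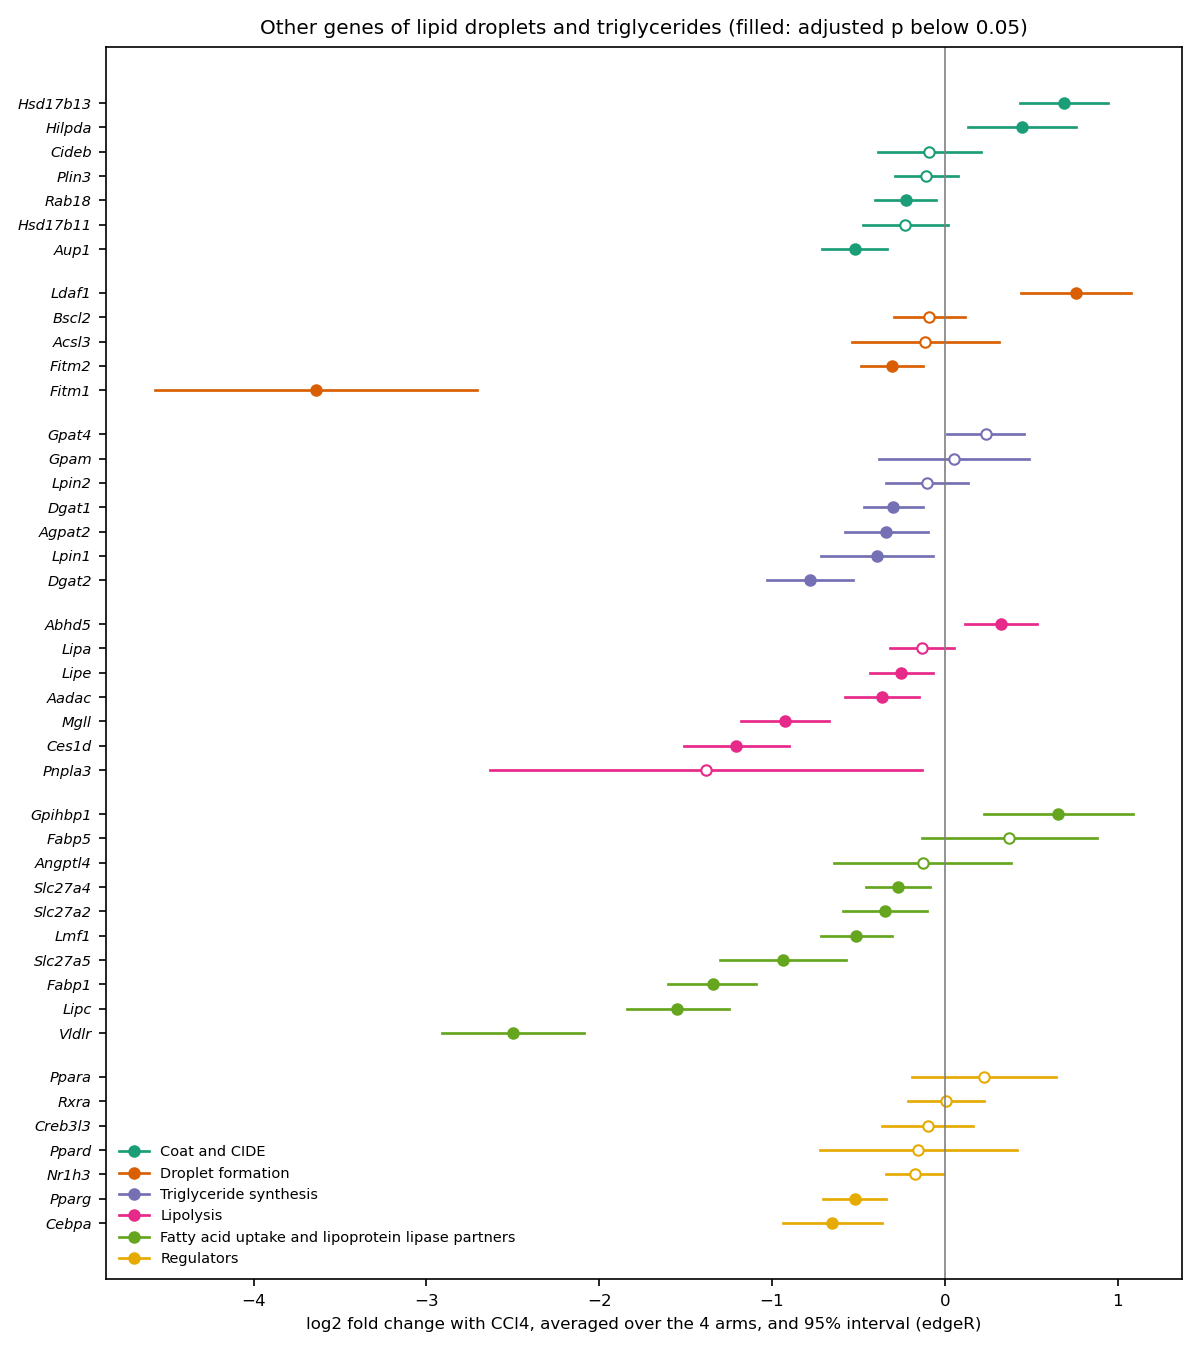
Log2 fold change with CCl4, averaged over the 4 arms (horizontal axis, with 95% interval), of the other pathway genes and regulators tested but 1, coloured by list. Filled points have an adjusted p below 0.05 (edgeR). Vldlr (-2.5), Lipc (-1.55) and Fabp1 (-1.34) lie far to the left, and Ldaf1, Hsd17b13 and Gpihbp1 to the right.

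Against CCl4, 8 of the 37 genes were higher and 2 lower in CCl4 + 4MU, where 8.28% and 10% of all genes were. In CCl4 + siHAS2-LNP 2 were higher and 0 lower, where 7.11% and 7.33% of all genes were. With 4MU, the triglyceride synthesis genes Lpin1 (1.29, adjusted p = 0.0164), Agpat2 (1.06, 0.00885) and Dgat2 (0.78, 0.045) were higher. So were, among others, Lipc (1.39, 0.00563), the fatty acid transport gene Slc27a5 (1.24, 0.0354), Aup1 (0.79, 0.011) and Lipe (0.65, 0.0245), which encodes hormone-sensitive lipase. In the same comparison 3 of 6 hepatocyte markers were called higher, with sums of 69100 to 122000 CPM in CCl4 and 143000 to 171000 CPM in CCl4 + 4MU, and their part in these differences was not tested. Hilpda (-0.97, 0.0341) and Fabp1 (-0.79, 0.0342) were lower. With siHAS2-LNP, Lipc (1.24, 0.0131) was among the higher genes. Each of the calls named here was lost without CCl4 mouse 2, and Fabp1 was then at 0.00583. Slc27a5 was at 0.574 without CCl4 mouse 2 and at 2.38 without CCl4 mouse 1. Of 13 alternatives, the call with 4MU was lost in 8 for Dgat2, 7 for Hilpda, 7 for Fabp1, 6 for Slc27a5 and 5 for Lipe. Lipe was also called in the interaction of 4MU with CCl4 (1.12, adjusted p = 0.0217), a call lost without CCl4 mouse 2 or 4MU mouse 3.

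Markers of other cell types were set beside these levels. Adipoq, Lep, Retn, Cfd and Ucp1, which define fat cells, had 4 counts or fewer in every mouse, and Lep had 0. The summed fat cell markers were 0.351 to 2.38 CPM over all mice, mostly from Adrb3, and those of skeletal muscle 0 to 0.498 CPM. The 7 stellate cell and myofibroblast markers were higher in 6 of 7 with CCl4, averaged over the arms, as were Lpl and Fabp4. Their sum was 199 to 523 CPM in CCl4 + 4MU, 417 to 922 CPM in CCl4 + siLuc-LNP and 237 to 377 CPM in CCl4 + siHAS2-LNP. The 8 macrophage markers were higher in 4 and lower in 2, and their sum was 320 to 522 CPM in control, 492 to 496 CPM in CCl4, 580 to 844 CPM in CCl4 + 4MU and 224 to 382 CPM in CCl4 + siHAS2-LNP. Among the fibrotic groups, the lowest median sums of macrophage (283 CPM) and stellate cell markers (257 CPM) were in CCl4 + siHAS2-LNP. Lpl averaged 633 CPM ± 191 (SD, n = 4) in that group. By edgeR it was called neither against CCl4 (0.86, adjusted p = 0.266) nor against CCl4 + siLuc-LNP (0.21, adjusted p = 0.86), and the groups overlapped. The 8 endothelial markers were higher in 3 and lower in 1, and summed to 73.5 to 122 CPM in control and 106 to 119 CPM in CCl4. In the treated fibrotic groups the endothelial sum was 84.5 to 142 CPM with 4MU, 93.2 to 109 CPM with siLuc-LNP and 61.5 to 78.9 CPM with siHAS2-LNP. Of the 6 hepatocyte markers 4 were lower and 0 higher. The part of these cell types in the levels of the members was not tested.

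The genes whose levels were most like those of each member were found by Pearson's r of log2 CPM over the 27 mice, which share groups and libraries. Lpl was most like Grb10 (r = 0.913) and Dcdc5 (0.909), and Fabp4 most like Epb41l2 (0.914) and Rcn1 (0.899). Pnpla2 was most like Gne (0.902) and Eef2 (0.901), Plin2 like Casp8 (0.836) and Slc25a30 (0.826), and Plin5 like Ranbp10 (0.826) and Rxrb (0.811). For Cd36 they were Aff1 (0.793) and Xpo7 (0.788), for Plin4 Zfp672 (0.754) and Tmem25 (0.753), for G0s2 Zfp574 (0.726) and Rfxank (0.718), and for Cidec Ddx27 (0.706) and Cyp2d41-ps (0.647). Between members, r was highest for Plin5 with Pnpla2 (0.723), then for Fabp4 with Lpl (0.636) and Plin4 with Plin5 (0.592), and lowest for G0s2 with Cd36 (-0.533).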

How the data were processed

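Poly(A) RNA of total liver was sequenced in pairs on a NextSeq500 with a directional kit. Per the submitters' processing notes and the methods, reads were trimmed with Trimmomatic 0.39, aligned to GRCm39 with HISAT2 (Ensembl annotation) and counted with featureCounts without multimapping reads. The HISAT2 version and strand setting are not given in the sources used here. The authors deposited raw counts for 55414 genes, unnormalised, and no row lacked a gene identifier. Symbols, positions and merged exon lengths came from GENCODE vM39, which matched 54749 genes.

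The 14114 genes whose mean reached 10 counts were fitted in R 4.3.3 with edgeR 4.0.16, on TMM-scaled libraries, all 8 groups in a single fit without covariates. Comparisons used edgeR's quasi-likelihood test at 0.05 after Benjamini-Hochberg adjustment over all genes. "Called", "higher", "lower", "rose" and "fell" refer to this test. 95% intervals used the test's degrees of freedom. These intervals take in the spread between mice as the fit estimated it. Counts of 3 or fewer were taken as the floor, which corresponds to 0.102 to 0.426 CPM and covers counting error only. Alternatives were DESeq2 1.42.0, limma 3.58.1 (voom with sample quality weights), other size factors, other filters, only the groups compared, a block for the replicate number, and each mouse left out. The scripts were tested on simulated data. Figures were drawn with matplotlib 3.10.9.

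Groups were taken from the labels. Each library is a mouse of its own, and all 34 replicate pairs differed by more than sampling noise (chi-square per degree of freedom 15.3 to 416). Members, lists and tests were chosen with earlier results of these data known. Named were all 10 members, up to 3 called genes by size of change per list, direction and comparison, and the 2 genes most like each member, with predicted genes left out. A gene of the lists and the promoter of a member are not reported here.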

Additional observations from a re-analysis of the deposited data

Results flagged for a closer look

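The following values stood apart. In control, Cidea was at 0.171 CPM in mouse 3 and at 0 in the other 3 mice, so the gap spans the whole range of the group. This value rests on 4 counts.

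In CCl4 + siHAS2-LNP, Fabp4 was at 3.47 CPM in mouse 4, below the 6.44 to 6.85 CPM of the other 3. That mouse has the shallowest library (7044386 counts), and the part of depth in the value was not tested. Of 40 groups of 4 mice examined over the 10 genes, 2 had such an extreme value, and chance gives about 1 in 20.

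The change of Pnpla2 with CCl4 differed between the 4MU arm and the untreated arm, by 1.33 on the log2 scale (edgeR adjusted p = 0.0321). Pnpla2 was lower with CCl4 in the untreated arm, by the group means from 61.9 to 38.2 CPM, and higher in the 4MU arm, from 50 to 77.6 CPM. Over the alternatives the call was lost as given beside the result in the report.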

How the results depend on the processing

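Of the values of single members under the alternatives, 980 kept their direction and side of the threshold, 62 lost their call, 35 gained one and 16 changed sign; for the other named genes the numbers were 738, 70, 0 and 1. Lpl, Fabp4 and G0s2 kept their averaged calls in all 34 alternatives, with log2 fold changes of 1.82 to 2.12, 1.23 to 1.39 and -1.04 to -0.621. Leaving out a mouse gave 4 to 5 called members in the averaged comparison, 2 to 4 for CCl4 against control, and 1 to 2, 3 to 4 and 1 to 2 in the 4MU, siLuc-LNP and siHAS2-LNP arms. Against CCl4 it gave 0 to 4 for CCl4 + 4MU, 0 to 3 for CCl4 + siHAS2-LNP and 0 to 1 for CCl4 + siLuc-LNP, and for the interaction of 4MU with CCl4 0 to 2. For CCl4 against control, where 6 members were called, limma-voom called 2, only the groups compared 3, and the replicate block 3. The block called 1 in the 4MU arm and 0 in the interaction of 4MU. limma-voom called 2 for CCl4 + 4MU and 1 for CCl4 + siHAS2-LNP against CCl4, 1 for siHAS2-LNP against siLuc-LNP, and 1 for siLuc-LNP against control. DESeq2 called 1 for siLuc-LNP against control. In the interaction of 4MU, DESeq2, limma-voom and DESeq2 size factors called 2 each and no filter 4. Without the filter 4 were called in the siHAS2-LNP arm, 5 for CCl4 + siHAS2-LNP against CCl4, 1 against CCl4 + siLuc-LNP, 2 for siLuc-LNP against control and 1 for siHAS2-LNP against siLuc-LNP. The cause of these differences was not tested.

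Signs changed for the averaged Plin5 (-0.0094 by limma-voom, -0.0452 to 0.0961 with a mouse left out) and the averaged Pnpla2 (0.0079 as 14 against 13 mice). With a mouse left out, Cidec was -0.405 to 2.01 against control, and against CCl4 -2.06 to 0.351 in CCl4 + 4MU, -1.91 to 0.485 in CCl4 + siHAS2-LNP and -2.01 to 0.405 in CCl4 + siLuc-LNP. In CCl4 + 4MU against CCl4, Lpl was -0.00972 with the replicate block and -0.384 to 0.572 with a mouse left out, and Fabp1 -1.32 to 0.00583. G0s2 was -0.024 to 0.385 in CCl4 + siHAS2-LNP and -0.245 to 0.5 in CCl4 + siLuc-LNP.

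The replicate numbers did not pair the mice. Deviations from the group means correlated by a median of -0.0167 in 83 pairs of mice with the same number and -0.0124 in 234 pairs with different numbers, and 4 of 27 mice matched their own number best. The CCl4 group had 2 mice, and Cidea, Plin4 and Cidec had low counts.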
